A study of Oryza sativa Japonica Group with 238 samples.

Results

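The HMA5 promoter line of rice was compared with the 35S line in 49-day-old roots from a paddy field, by 3 TRAP libraries of each line among the 24 field TRAP libraries and the 187 RNA libraries of the series, which holds 238 libraries with its chromatin samples. The libraries were chosen by their labels alone, and no measured value entered the choice. In TRAP (translating ribosome affinity purification) a FLAG- and GFP-tagged ribosomal protein L18, RPL18, serves as the handle for isolating polysomes, and their poly(A) RNA is sequenced. Every line is in cultivar Nipponbare and carries the same tagged protein, so the lines differ in the promoter in front of it.

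In the HMA5 line the tag stands behind the promoter of HMA5, and in the 35S line behind the viral 35S promoter, which is used as the reference for the whole root. The other promoters grown in the field were EXP5B, LSI1, NRAMP5, QHB, RSS1 and SHR1, with 3 TRAP libraries each, and the 35S line also gave 3 libraries of TOTAL RNA, the poly(A) RNA of the root without a pull-down. Seedlings were moved to the field at 14 days of age and roots were collected 35 days later, and none of these groups received a stress treatment. The labels do not say whether a line is 1 transformation event or what the 3 libraries of a group share. The p-values therefore measure the spread between these libraries.

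HMA5 is a P-type ATPase that moves copper across membranes, and in rice it is known for loading copper into the xylem from the cells around the vessels. The stele holds the xylem and phloem, and vessel cells build secondary walls from cellulose made by a dedicated set of cellulose synthases and from lignin, which laccases and peroxidases polymerize. The endodermis and exodermis, which seal the stele and the outer root with Casparian bands and suberin, carry the silicon and manganese transporters of rice.

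The libraries labelled HMA5 were not set apart from 35S TRAP by the HMA5 gene, and they resembled TOTAL RNA and the RSS1, EXP5B and SHR1 lines, with the values given further on. The gene therefore gives no check of their label, and "the HMA5 line" here means the libraries labelled so.

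These libraries differed from the 35S TRAP libraries in 2554 of 27513 genes tested, which is 9.28%. A gene is called here when its adjusted p in limma was under 0.05 and its difference was at least 1 on the log2(TPM + 1) scale, in a fit over all 24 field TRAP libraries. Of these calls, 1888 genes were higher in the HMA5 line (6.86% of those tested) and 666 were lower (2.42%), so that 73.9% were higher, and with the libraries centred on their median gene the higher share was 62.0%. The median difference of all genes tested was 0.08 and became -0.06 with that centring. Leaving out 35S replicate 2 gave 1347 calls, 35S replicate 1 gave 1428, HMA5 replicate 1 gave 1477 and HMA5 replicate 2 gave 1597. The lower count moved more, to 220 without 35S replicate 1, 228 without 35S replicate 2, 349 without HMA5 replicate 1 and 424 without HMA5 replicate 2. Array weights gave 4777 calls, 1604 of them lower.

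Against other lines in the same field the HMA5 libraries differed far more or far less, depending on the line. They differed from LSI1 in 6824 genes (24.8%), from NRAMP5 in 3215 (11.7%) and from QHB in 1769 (6.43%). Genes higher in the HMA5 line made up 13.2% of those tested against LSI1, 5.69% against NRAMP5 and 2.34% against QHB, and genes lower in it 11.6%, 6% and 4.09%. From EXP5B they differed in 5 genes (0.0182%; 0.0109% higher), from SHR1 in 4 (0.0145%; 2 with a replicate block) and from RSS1 in 2 (0.00727%). Of the 4 calls against SHR1 1 was higher (0.00363%) and 3 lower (0.0109%), and of the 2 against RSS1 1 was higher (0.00363%) and 1 lower (0.00363%). Set against TOTAL RNA of the 35S line, whose tests covered 27532 genes, 66 genes were called (0.24%), 57 of them higher in the HMA5 line, and 110 with the replicate block. Array weights, which give uneven libraries less say, raised that count to 758, and leaving out HMA5 replicate 3 raised it to 298 while leaving out HMA5 replicate 1 lowered it to 22. The comparisons with EXP5B, RSS1, QHB, LSI1 and TOTAL RNA were added after values had been seen.

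**Figure D1:**
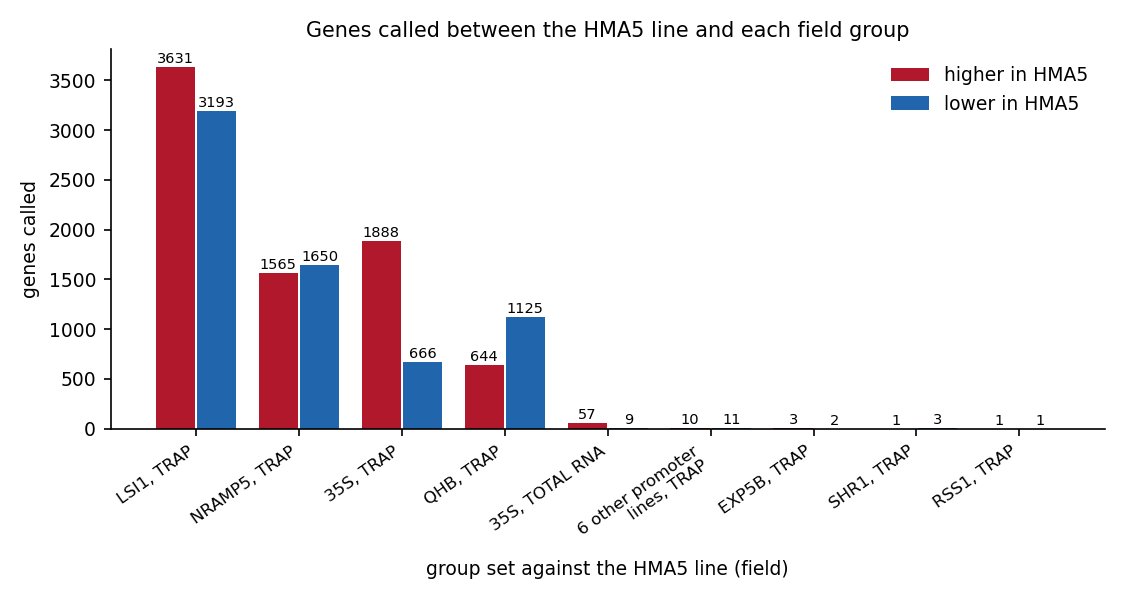
Genes called between the HMA5 line and each field group; bars give the number of genes higher (red) and lower (blue) in the HMA5 line, starting at 0. The bars reach 3631 against LSI1 and 1888 against 35S TRAP, and stay at 3 or fewer against EXP5B, SHR1 and RSS1.

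The correlation of log2 values across genes, given as a description, ran from 0.823 to 0.896 between the HMA5 libraries themselves. It ran from 0.830 to 0.946 with the RSS1 libraries and from 0.769 to 0.879 with the 35S TRAP libraries. HMA5 replicate 3 stood at 0.879 with 35S TRAP replicate 3 and at 0.803 and 0.817 with the other 35S TRAP libraries. With HMA5 replicates 1 and 2 it stood at 0.823 and 0.874. The values that follow use genes filtered over all RNA libraries of the series, not over the field TRAP libraries alone. Among all 186 other RNA libraries, HMA5 replicate 1 was most like RSS1 field replicate 1 (0.912), HMA5 replicate 2 most like RSS1 field replicate 2 (0.949) and HMA5 replicate 3 most like 35S TOTAL field replicate 3 (0.923). These libraries share their field and the authors' quantile normalization. The closeness of the HMA5 line to TOTAL RNA and to the RSS1, EXP5B and SHR1 lines stands beside every difference from 35S TRAP given here, and its part in them was not tested.

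The HMA5 gene itself (OS04G0556000), which marks the cells the promoter is named for, did not pass the test. It read 53.3, 22.5 and 12.9 TPM in the HMA5 line and 36.3, 25.4 and 19.3 TPM in 35S TRAP. The 35S values lie inside the range of the HMA5 values, and the difference was -0.06 on the log2 scale (95% interval -0.98 to 0.86, adjusted p = 0.959). Without HMA5 replicate 3 the difference was 0.40 and without HMA5 replicate 1 it was -0.59, neither of them passing the test.

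Across the field groups the HMA5 gene averaged 29.6 TPM ± 21.1 (SD, n = 3) in its own line, 27.0 ± 8.60 in 35S TRAP, 24.5 ± 6.58 in QHB, 17.6 ± 6.75 in EXP5B, 17.5 ± 10.3 in TOTAL RNA, 14.1 ± 5.07 in NRAMP5, 13.1 ± 2.78 in RSS1, 11.3 ± 4.79 in SHR1 and 3.87 ± 1.22 in LSI1. From the HMA5 line to QHB, and from EXP5B to SHR1, each mean lay within 1 SD of its neighbour. The gap between QHB and EXP5B exceeded the SD of both, though their libraries overlap, and the LSI1 libraries, at 3.01 to 5.26 TPM, lie below all others. The HMA5 line exceeded the mean of the 6 other promoter lines by 0.99, with an adjusted p of 0.194.

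RPL18 (OS03G0341100), the gene of the tagged protein, read 2662, 1162 and 1395 TPM in the HMA5 line and 7518, 2667 and 2055 TPM in 35S TRAP. The groups overlap, and the difference of -1.08 had an adjusted p of 0.406. Reads of the endogenous gene and of the tagged copy cannot be told apart in these values. The TOTAL RNA libraries lay lowest, at 825.7, 626.9 and 414.5 TPM, and LSI1 replicate 3 highest, at 119200 TPM.

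**Figure D2:**
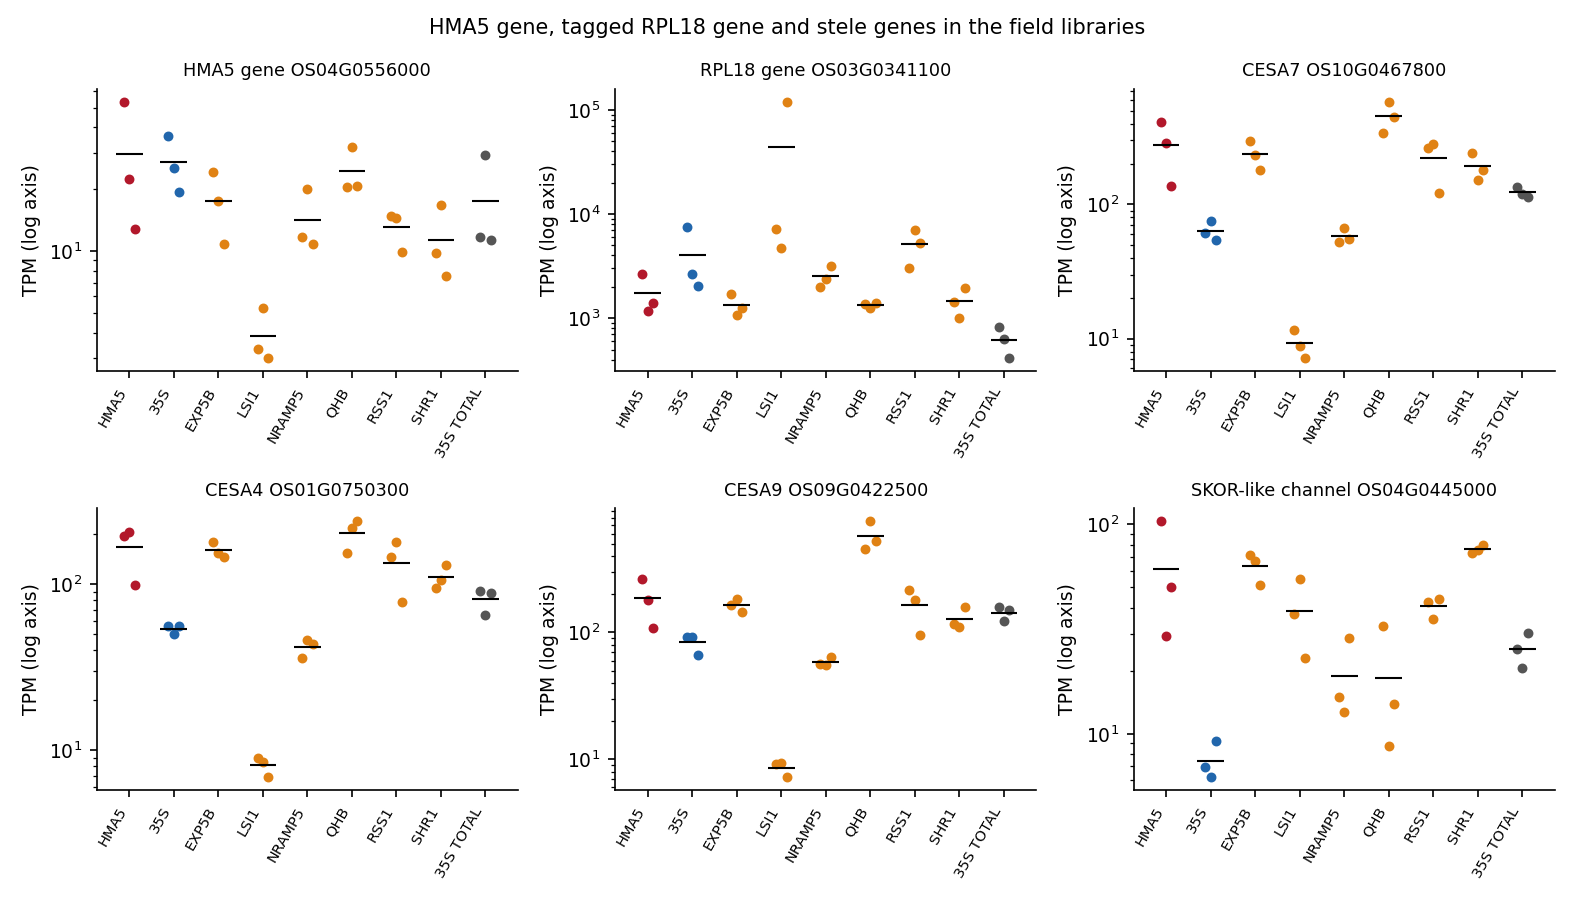
TPM (log axis) of the HMA5 gene, the RPL18 gene, 3 secondary wall cellulose synthases and a SKOR-like potassium channel in each field library; dots are libraries, lines are group means, and colours mark the HMA5 line (red), 35S TRAP (blue), other promoter lines (orange) and 35S TOTAL RNA (grey). The 3 HMA5 libraries overlap 35S TRAP for the HMA5 gene and lie above it for the cellulose synthases and the channel.

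Several genes of xylem and secondary walls were called higher in the HMA5 line than in 35S TRAP. Of 28 tested members of the secondary wall and xylem list, 9 were called higher and 0 lower, a share of 32.1% beside 6.86% of all genes, and the median difference of the list was 0.75 beside 0.08. The separate list of phenylpropanoid and lignin synthesis did not go this way. Of its 54 tested members 1 was called higher (1.85% beside 6.86% of all genes) and 2 lower (3.7% beside 2.42%). Its median difference was -0.03. In bulk RNA, more cells of a type and more RNA per cell cannot be told apart.

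The secondary wall cellulose synthase OS10G0467800 (CESA7) read 408.7, 288.4 and 137.1 TPM in the HMA5 line and 61.7, 75.0 and 54.4 TPM in 35S TRAP. The groups did not overlap, and the difference was 1.98 ± 0.36 (SE; adjusted p = 0.0011). Its partners in the wall-building complex followed, with OS01G0750300 (CESA4) at 197.0, 207.3 and 99.1 against 55.8, 50.2 and 55.9 TPM (1.55, adjusted p = 0.002). OS09G0422500 (CESA9) stood at 266.1, 181.8 and 108.4 against 92.9, 91.7 and 66.7 TPM (1.06, adjusted p = 0.0356). In all of these HMA5 replicate 3 was the lowest of its group. BRITTLE CULM1 (OS03G0416200), which is needed for cellulose assembly in mechanical tissue, was higher by 1.38.

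Laccases, which oxidize lignin precursors, made up 4 of the 9 calls. OS01G0827300 read 96.3, 104.2 and 61.0 TPM in the HMA5 line and 12.1, 8.20 and 13.7 TPM in 35S TRAP (2.83, adjusted p = 0.00013). The xylem cysteine proteinase gene OS05G0108600, whose relatives act in the death of vessel cells, read 125.7, 102.4 and 86.0 against 17.9, 18.0 and 15.9 TPM (2.52). Each of the 9 members was also higher in TOTAL RNA than in 35S TRAP, for example CESA7 at 122.9 TPM ± 10.1 (SD, n = 3) in TOTAL RNA. Genes called higher were picked partly for low values in the same 35S TRAP libraries, which favours this result. It held for every member called higher in most lists, such as 16 ribosomal protein genes, with single exceptions in a few, and so is no trait of wall genes. In the comparison with the 6 other promoter lines none of the secondary wall list was called. The differences were 1.10 for OS01G0750300, 1.13 for OS10G0467800 and 0.79 for OS09G0422500. In the same order QHB averaged above the HMA5 line, at 205.1 against 167.8, 457.1 against 278.1 and 580.9 against 185.4 TPM. The other lines averaged below the HMA5 line, with LSI1 lowest at 8.1, 9.2 and 8.6 TPM. For OS10G0467800 EXP5B averaged 237.4 TPM and RSS1 221.4 TPM.

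Among transporters that load the xylem, 2 of 10 tested members were called higher, 20% beside 6.86% of all genes, with a median of 0.77. One of them is the silicon efflux gene OS03G0107300, which is also in the endodermis list. The SKOR-like potassium channel OS04G0445000, whose Arabidopsis relative releases potassium into the xylem, read 103.8, 29.3 and 50.1 TPM in the HMA5 line and 6.92, 6.20 and 9.20 TPM in 35S TRAP (2.71 ± 0.44 SE, adjusted p = 0.000407). The groups did not overlap, while EXP5B at 63.3 TPM and SHR1 at 76.4 TPM averaged no lower than the HMA5 line.

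The following transporters of phosphate, citrate and copper-nicotianamine did not pass the test against 35S TRAP. The root-to-shoot phosphate transporter OS02G0809800 differed by 0.69 (95% interval -0.03 to 1.41). For the citrate transporter OS03G0216700, which keeps iron soluble in the xylem, the value was 0.80 (interval 0.00 to 1.59). The copper-nicotianamine transporter OS04G0542800 read 28.3, 24.7 and 30.5 TPM against 10.4, 12.9 and 16.8 TPM, a difference of 1.02 with an adjusted p of 0.0701. Its 3 HMA5 libraries all lay above the 3 of 35S. The cation transporter OS01G0307500 went the other way, at -0.45 (interval -1.89 to 0.99), and the ion transporter OS06G0701700 stood at -0.02. Of the 10 tested members of the xylem loading list, 8 had a positive difference.

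Copper and heavy metal transport, the process HMA5 belongs to, gave 0 calls among 17 tested genes in limma, beside 9.28% of all genes. Of the 17, 2 had an unadjusted p under 0.05, beside 6793 of all 27513 genes. The median difference was 0.22 beside 0.08. In a list this short, 0 calls cannot be told from the share over all genes. The summed level of these genes was 370 to 503 TPM in the HMA5 libraries, 285 to 433 TPM in 35S TRAP and 413 to 711 TPM in TOTAL RNA. The copper transporter gene OS01G0770700, similar to copper transporter 1, read 56.5, 131.6 and 78.1 against 119.1, 35.1 and 41.4 TPM. The chaperone gene OS08G0405700, which carries copper within the cell, read 95.3, 85.4 and 45.2 against 45.6, 59.2 and 37.2 TPM. Both pairs of groups overlap.

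Transporters of the exodermis and endodermis were higher in the HMA5 line than in 35S TRAP. The silicon influx channel gene OS02G0745100 (LSI1) read 412.0, 399.5 and 499.9 TPM in the HMA5 line and 93.3, 84.0 and 96.6 TPM in 35S TRAP (2.24, adjusted p = 0.00839). The silicon efflux gene OS03G0107300 (LSI2) read 336.6, 201.1 and 287.8 against 48.0, 25.2 and 26.9 TPM (3.03, adjusted p = 0.00349). The manganese and cadmium uptake gene OS07G0257200 (NRAMP5) read 155.0, 110.4 and 103.6 against 32.1, 25.5 and 18.4 TPM (2.25, adjusted p = 0.00296).

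These 3 genes did not overlap between the groups, and they differed from the mean of the 6 other promoter lines by -0.06, -0.11 and -0.01. The list of endodermis, exodermis and suberin genes had a median of 0.95 beside 0.08 over all genes. Of its 24 tested genes 0 were called lower and 6 higher, 25% beside 6.86% of all genes. Besides the silicon transporters these were genes for suberin monomers and their linkage, among them the cytochrome P450 OS10G0486100 (2.07) and the fatty acyl-CoA reductase OS09G0567500 (2.06). Without HMA5 replicate 2 the count was 3.

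Iron acquisition gave 3 calls of 15, all higher, 20% beside 6.86% of all genes, while the median of the list was 0.06 beside 0.08. Nicotianamine synthase 1 (OS03G0307300), which makes the metal chelator nicotianamine, read 159.1, 51.8 and 84.2 TPM against 19.0, 11.3 and 13.3 TPM (2.56, adjusted p = 0.0013). Nicotianamine synthase 2 (OS03G0307200) was higher by 2.68, and the iron-phytosiderophore transporter OS02G0650300 by 2.93. Among manganese, zinc and other metal transporters 7 of 68 were higher (10.3%) and 2 lower (2.94%), and 2 were higher without HMA5 replicate 1.

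Of 68 class III peroxidases, which cross-link or loosen walls, 24 were called higher (35.3% beside 6.86% of all genes) and 0 lower. Their median was 0.97, and 1 was called lower with the replicate block. Without 35S replicate 2 the higher count was 15. OS05G0499300, similar to a peroxidase but outside this list, read 161.6, 275.7 and 137.4 TPM in the HMA5 line and 7.71, 6.22 and 9.81 TPM in 35S TRAP (4.39, adjusted p = 2.4e-08). Its averages were 193.6 to 212.1 TPM in EXP5B, RSS1 and SHR1, beside 191.6 TPM in the HMA5 line. In LSI1, NRAMP5 and QHB they were 5.40 to 127.2 TPM. Against the mean of the 6 other promoter lines this gene was higher by 1.21 (limma, adjusted p = 0.0477). OS01G0263300, similar to peroxidase 72, stood at 209.2, 305.7 and 240.0 against 24.4, 13.9 and 31.1 TPM (3.44). All 24 list members called higher were also higher in TOTAL RNA than in 35S TRAP, as the genes called higher in most lists were. Against the 6 other promoter lines 0 of the 68 were called, beside 0.0763% of all genes.

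Expansins, which let walls stretch during growth, gave 12 calls of 44, all higher (27.3% beside 6.86% of all genes). Their median was 1.13, and 8 were called higher without 35S replicate 2. The beta-expansin OS03G0102500 read 52.8, 81.9 and 58.3 TPM against 3.66, 3.61 and 2.90 TPM (3.88), without overlap. Lipid transfer proteins, which carry lipids to the wall and cuticle, gave 12 higher (27.3%) and 2 lower (4.55% beside 2.42% of all genes) of 44. All 24 of the higher expansins and lipid transfer proteins were likewise above 35S TRAP in TOTAL RNA, as in most lists. In both lists 0 members were called against the 6 other promoter lines, beside 0.0763% of all genes.

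Of 148 cell cycle and DNA replication genes 32 were called higher (21.6% beside 6.86% of all genes) and 0 lower, with a median of 0.71. Histones, which package new DNA, made up 20 of the 32, kinesins 5, and cyclins with the replication clamp PCNA another 5. The histone H2A gene OS12G0530000 read 141.9, 122.5 and 146.7 TPM in the HMA5 line and 23.1, 20.5 and 25.6 TPM in 35S TRAP (2.52, adjusted p = 0.00012). PCNA (OS02G0805200) read 65.9, 51.7 and 57.6 against 14.0, 22.3 and 18.1 TPM (1.65). All 32 were higher in TOTAL RNA than in 35S TRAP, as in most lists, and 18 were called without HMA5 replicate 1 or without 35S replicate 2. Against the 6 other promoter lines 0 of the 148 were called, beside 0.0763% of all genes. Near-identical histone copies can share reads, and no label says how the counting divided them, so single histone genes are uncertain.

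**Figure D3:**
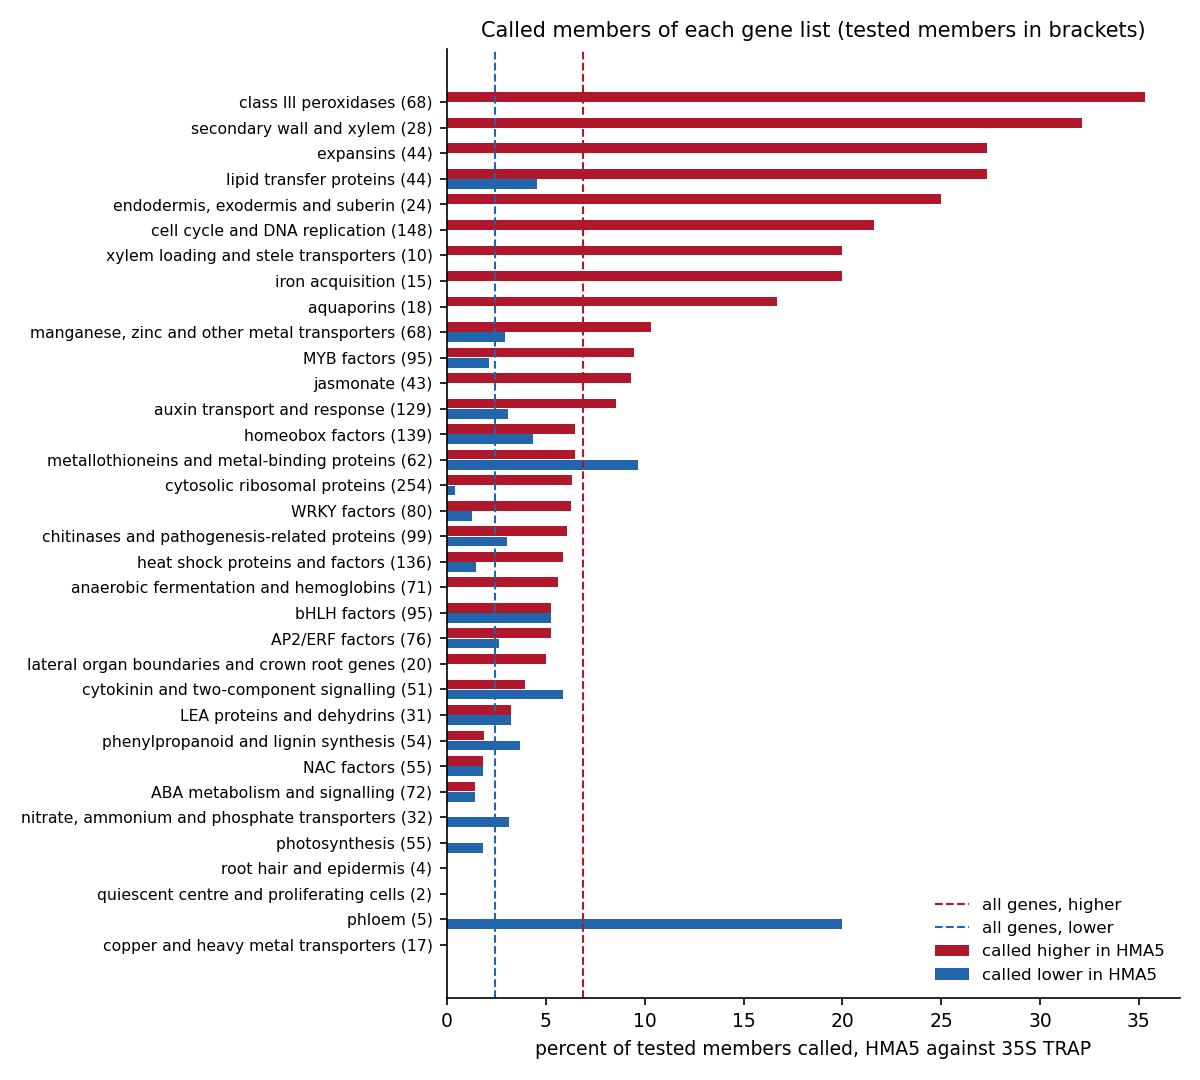
Percent of tested members of each gene list called higher (red) or lower (blue) in the HMA5 line against 35S TRAP; dashed lines give the shares over all genes, 6.86% and 2.42%. Class III peroxidases (35.3%) and secondary wall genes (32.1%) lie farthest above the dashed line for higher genes. The copper and heavy metal list, of only 17 genes, holds no call.

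The single most abundant RNA of the HMA5 line was OS06G0175500, a gene with an epsin-like domain of the kind that binds membranes during vesicle budding. It ranked first in each HMA5 library, at 46610, 45390 and 44270 TPM, and read 3555, 1991 and 1909 TPM in 35S TRAP and 1124, 2293 and 405.4 TPM in TOTAL RNA. The EXP5B, NRAMP5, QHB, RSS1 and SHR1 lines also averaged 42413 to 46257 TPM, whereas LSI1 averaged 1483 TPM. In 35S TRAP the first-placed gene was OS01G0963600 in replicate 1 (94790 TPM) and OS01G0974200 in replicates 2 and 3 (125500 and 133500 TPM). In TOTAL RNA OS02G0626100 was first, at 34810 to 36440 TPM.

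The largest rise among the named genes belonged to OS07G0271000, similar to a GDP dissociation inhibitor, a class of proteins that recycles Rab GTPases in membrane traffic. It read 4161, 3550 and 897.0 TPM in the HMA5 line, 48.5, 40.4 and 31.7 TPM in 35S TRAP and 14.2, 30.6 and 7.74 TPM in TOTAL RNA (5.87 ± 0.46 SE against 35S TRAP, adjusted p = 1.2e-07). Of this gene EXP5B averaged 4624 TPM and SHR1 3820 TPM, beside 2869 TPM in the HMA5 line. The other promoter lines averaged 54.0 to 564.7 TPM. A second epsin-like gene, OS02G0803300, read 12020, 11710 and 11420 against 196.1, 97.0 and 499.9 TPM (5.78). Its averages were 11697 to 11933 TPM in EXP5B, RSS1 and SHR1, beside 11717 TPM in the HMA5 line. In LSI1, NRAMP5 and QHB they were 215 to 6090 TPM. The neighbour of OS02G0803300 by identifier, OS02G0803400, of the vacuolar sorting family Vps55, differed by 5.70. No label says whether reads were counted by strand.

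Other genes of this kind were the diacylglycerol acyltransferase OS02G0714100 (5.62), which makes storage lipid, the isoleucine-tRNA ligase-like OS06G0645400 (4.79), which charges tRNA for translation, and the phosphotransfer gene OS04G0636200 (4.40). Of OS02G0714100 EXP5B averaged 7063 TPM and SHR1 6910 TPM, beside 5379 TPM in the HMA5 line. The other promoter lines averaged 78.8 to 1364 TPM. The cupredoxin OS07G0570550, of a family of small copper proteins, read 1532, 569.8 and 313.2 TPM against 24.2, 25.2 and 46.0 TPM (4.37, adjusted p = 9.0e-06). In TOTAL RNA it averaged 25.9 TPM. The EXP5B line averaged 1374 TPM of it and the SHR1 line 832.8 TPM.

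The level in TOTAL RNA varied among the 15 named rises. On the log2 scale it lay nearer to 35S TRAP for 9 of them, OS07G0271000, OS02G0803300 and OS02G0803400 included. It lay about midway for OS03G0227800, at 124.2 TPM between means of 22.7 TPM in 35S TRAP and 679.7 TPM in the HMA5 line, and for OS11G0139700, at 56.3 TPM between 10.2 and 264.0 TPM. It lay nearer to the HMA5 line for 6, among them both peroxidases, OS05G0499300 and OS01G0294700. OS01G0294700 read 433.4, 563.7 and 216.6 TPM in the HMA5 line, 14.1, 14.4 and 22.2 TPM in 35S TRAP and averaged 317.5 TPM in TOTAL RNA. OS09G0409100, with no described function, read 1672, 1897 and 1540 TPM against 69.7, 92.1 and 74.0 TPM and averaged 2941 TPM in TOTAL RNA. The remaining named rises, OS08G0543275, OS03G0227800, OS11G0139700, OS10G0453900 and OS12G0569200, have no function given or are described by a family name, with differences of 4.30 to 5.21.

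**Figure D4:**
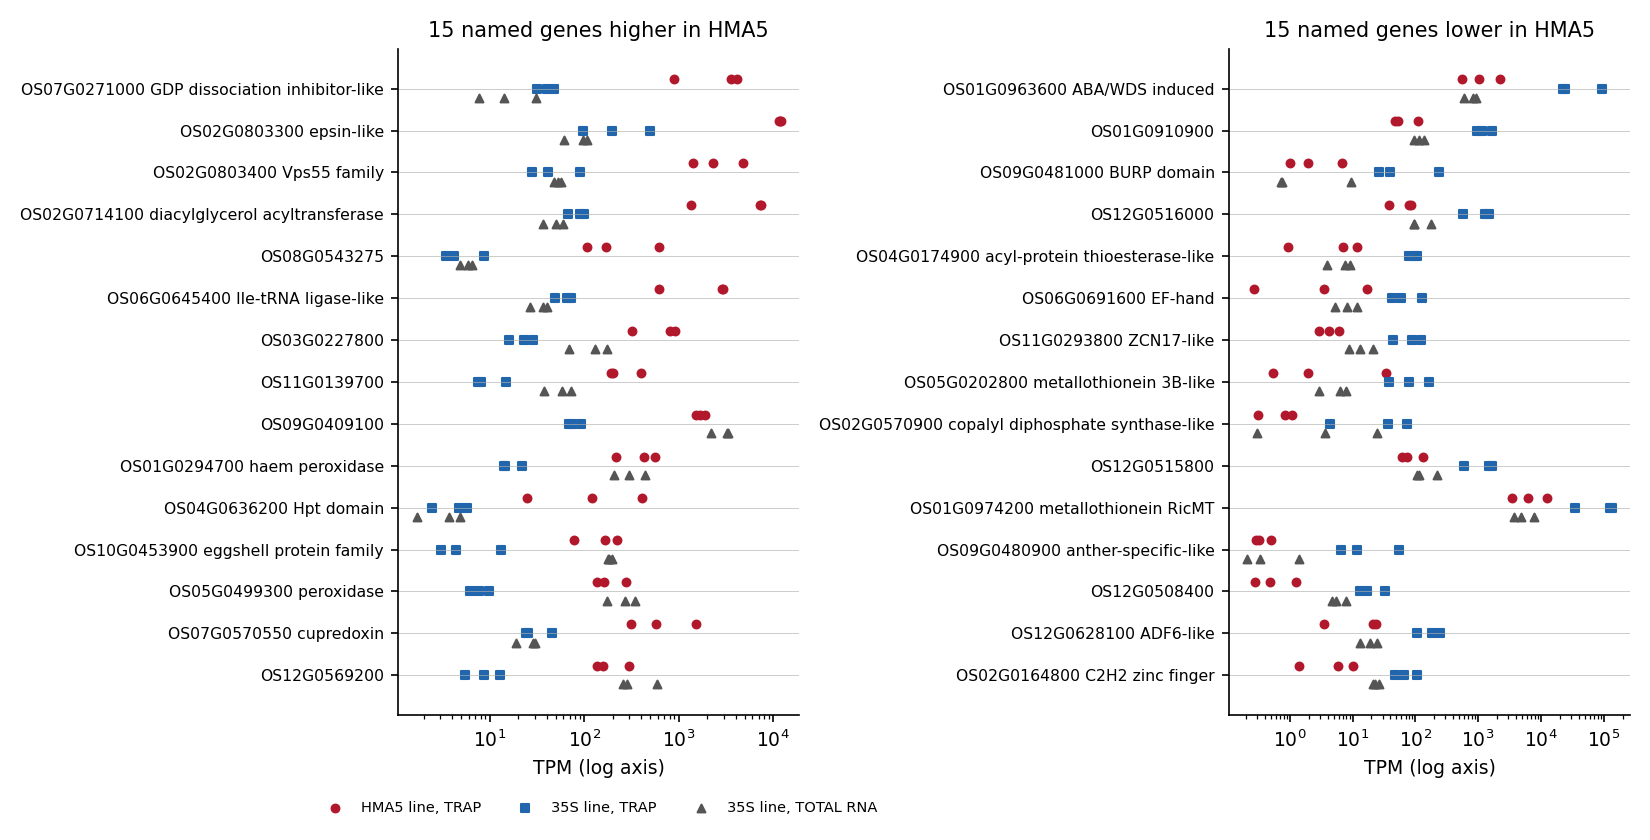
TPM (log axis) in each library of the 15 named genes higher and the 15 lower in the HMA5 line than in 35S TRAP; red circles are HMA5 TRAP, blue squares 35S TRAP and grey triangles 35S TOTAL RNA. Red and blue do not overlap by the rule that named the genes, and grey lies nearer red for 6 of the 15 rises and 12 of the 15 falls.

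Genes lower in the HMA5 line were led by very abundant RNAs of the 35S TRAP libraries. The ABA/WDS induced gene OS01G0963600, of a family that responds to abscisic acid, water deficit and ripening, read 1021, 558.7 and 2234 TPM in the HMA5 line and 94790, 22680 and 24120 TPM in 35S TRAP (-5.10 ± 0.65 SE, adjusted p = 3.1e-05). TOTAL RNA averaged 777.8 TPM and NRAMP5 12917 TPM. The metallothionein RicMT (OS01G0974200), a small cysteine-rich protein that binds copper and zinc, read 6152, 3421 and 12450 against 34470, 125500 and 133500 TPM (-3.70, adjusted p = 0.0013).

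RicMT ranked first in the 35S replicates 2 and 3 and second in replicate 1, and averaged 5473 TPM in TOTAL RNA. Fitted on the HMA5 and 35S libraries alone its adjusted p was 0.0563. Of 62 metallothioneins and other metal-binding proteins 6 were lower (9.68% beside 2.42% of all genes) and 4 higher (6.45% beside 6.86%), and 11 were higher with the replicate block. Their median difference was 0.51, and their summed TPM was 20038 to 24529 in the HMA5 line, 44593 to 141280 in 35S TRAP and 29257 to 35755 in TOTAL RNA. Without HMA5 replicate 2, or without 35S replicate 2, 3 were lower. A type 1 metallothionein, OS12G0568500, went the other way, at 512.2, 734.0 and 382.0 TPM against 68.4, 47.9 and 56.5 TPM (3.18). Metallothionein copies can share reads, so their separate levels are uncertain.

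The metallothionein 3B-like OS05G0202800 differed by -3.88, with an adjusted p of 0.0687 when fitted on the HMA5 and 35S libraries alone and 0.0505 without HMA5 replicate 2. The ADF6-like gene OS12G0628100, of a family that severs actin filaments, read 23.9, 3.53 and 21.1 TPM against 243.9, 183.8 and 105.7 TPM (-3.64). The copalyl diphosphate synthase 2-like gene OS02G0570900, for a step towards diterpenes, read 1.07, 0.829 and 0.308 against 36.7, 74.6 and 4.41 TPM (-3.87), and without 35S replicate 2 its adjusted p was 0.0549. The other 10 named falls lay between -3.62 and -4.22.

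For 12 of the 15 named falls the level in TOTAL RNA was nearer to the HMA5 line than to 35S TRAP. The falls were picked partly for high values in these 35S TRAP libraries, which favours that result. The NRAMP5 line was high for several of them, for instance 440.2 TPM of OS12G0628100 and 1297 TPM of OS12G0516000. That last gene read 85.8, 37.6 and 78.5 TPM in the HMA5 line and 1304, 1504 and 579.2 TPM in 35S TRAP. A sucrose transporter gene, OS03G0170900, which loads sugar in the phloem, was lower, at 4.56, 0.982 and 3.43 TPM against 36.3, 18.4 and 16.4 TPM (-2.67). It was the 1 of 5 phloem genes called, and the share of 20%, beside 2.42% of all genes, rests on it alone.

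The regulator lists held calls at shares near those over all genes, 6.86% higher and 2.42% lower. Among MYB factors 9 of 95 were higher (9.47%) and 2 lower (2.11%), led by OS01G0975300, described for drought and salinity tolerance, at 488.4, 414.3 and 267.4 TPM against 24.3, 15.5 and 20.1 TPM (4.20). Among homeobox factors 9 of 139 were higher (6.47%) and 6 lower (4.32%). Those higher included the class III homeodomain-leucine zipper genes OS06G0720500 (2.15), OS06G0722300 (2.12) and OS06G0722650 (1.98), whose family patterns vascular tissue, and these genes are alike, so that reads may be shared. In the auxin list 11 of 129 were higher (8.53%) and 4 lower (3.1%). The higher ones included the efflux carrier OS06G0660200 (3.10) and the influx carrier OS10G0147400 (2.46), and the lower ones the efflux carrier OS01G0919800, at 17.1, 11.3 and 12.5 against 242.9, 155.9 and 72.7 TPM (-3.29).

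Photosynthesis genes, which mark green tissue, summed to 71.7 to 334 TPM in the HMA5 line and 130 to 216 TPM in 35S TRAP. Of 55 tested 0 were higher and 1 lower (1.82%), beside 6.86% and 2.42% of all genes. Ribosomal protein genes gave 16 higher (6.3%) and 1 lower (0.394%) of 254, with a median of 0.30.

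Against the mean of the 6 other promoter lines 21 genes were called (0.0763%), 10 higher (0.0363%) and 11 lower (0.04%), with 3658 genes at an unadjusted p under 0.05. With the replicate block 180 genes were called, with array weights 68, and with the compared libraries fitted alone 4. Without HMA5 replicate 1 the limma count was 0, with 2363 genes at an unadjusted p under 0.05, and without HMA5 replicate 3 it was 45. The cupredoxin OS11G0428800 read 6928, 1989 and 3511 TPM in the HMA5 line, where the other promoter lines averaged from 48.8 TPM in LSI1 to 2061 TPM in SHR1 (2.89, adjusted p = 0.0083). Its values in 35S TRAP were 708.6, 501.3 and 327.4 TPM and in TOTAL RNA 1382, 2784 and 1851 TPM, so the HMA5 libraries lay above 35S TRAP and overlapped TOTAL RNA and SHR1.

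The NAD(P)-binding domain gene OS04G0390800 read 5.10, 1.73 and 5.87 TPM in the HMA5 line, and the other 24 field RNA libraries read 0.103 to 0.428 TPM. All HMA5 libraries lay above all others of the field. The gene was called higher against the 6 lines (1.98, adjusted p = 0.00015), SHR1 (1.91), EXP5B (1.94), RSS1 (2.06) and TOTAL RNA (2.07). Only the HMA5 libraries of the field reached the 1 TPM needed for testing, so the gene was tested through the group where it is high. Its calls are therefore no separate support for the difference. In the series as a whole 35 of the 184 other RNA libraries reached the lowest of these HMA5 values, the highest of them 16.4 TPM in a greenhouse library of the CASP line. At levels this low the + 1 in the log scale understates the ratio.

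Genes lower in the HMA5 line than in the 6 other lines included OS06G0717300, with no described function, at 3.26, 5.51 and 0.939 TPM (-2.56, adjusted p = 0.0083). The lines' averages ran from 16.9 TPM in RSS1 to 38.8 TPM in LSI1, with 26.4 TPM in TOTAL RNA. The WD40 repeat-like gene OS11G0660300 read 0.859, 8.61 and 4.18 TPM against averages of 13.2 to 34.1 TPM (-2.22). The ATP binding family gene OS02G0555000 (-1.38) and OS07G0174200, similar to ribosomal protein S18 of the small subunit (-1.54), also passed, each just under the threshold with an adjusted p of 0.0457. Without HMA5 replicate 1 the adjusted p of these 4 genes ran from 0.118 to 0.33.

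**Figure D5:**
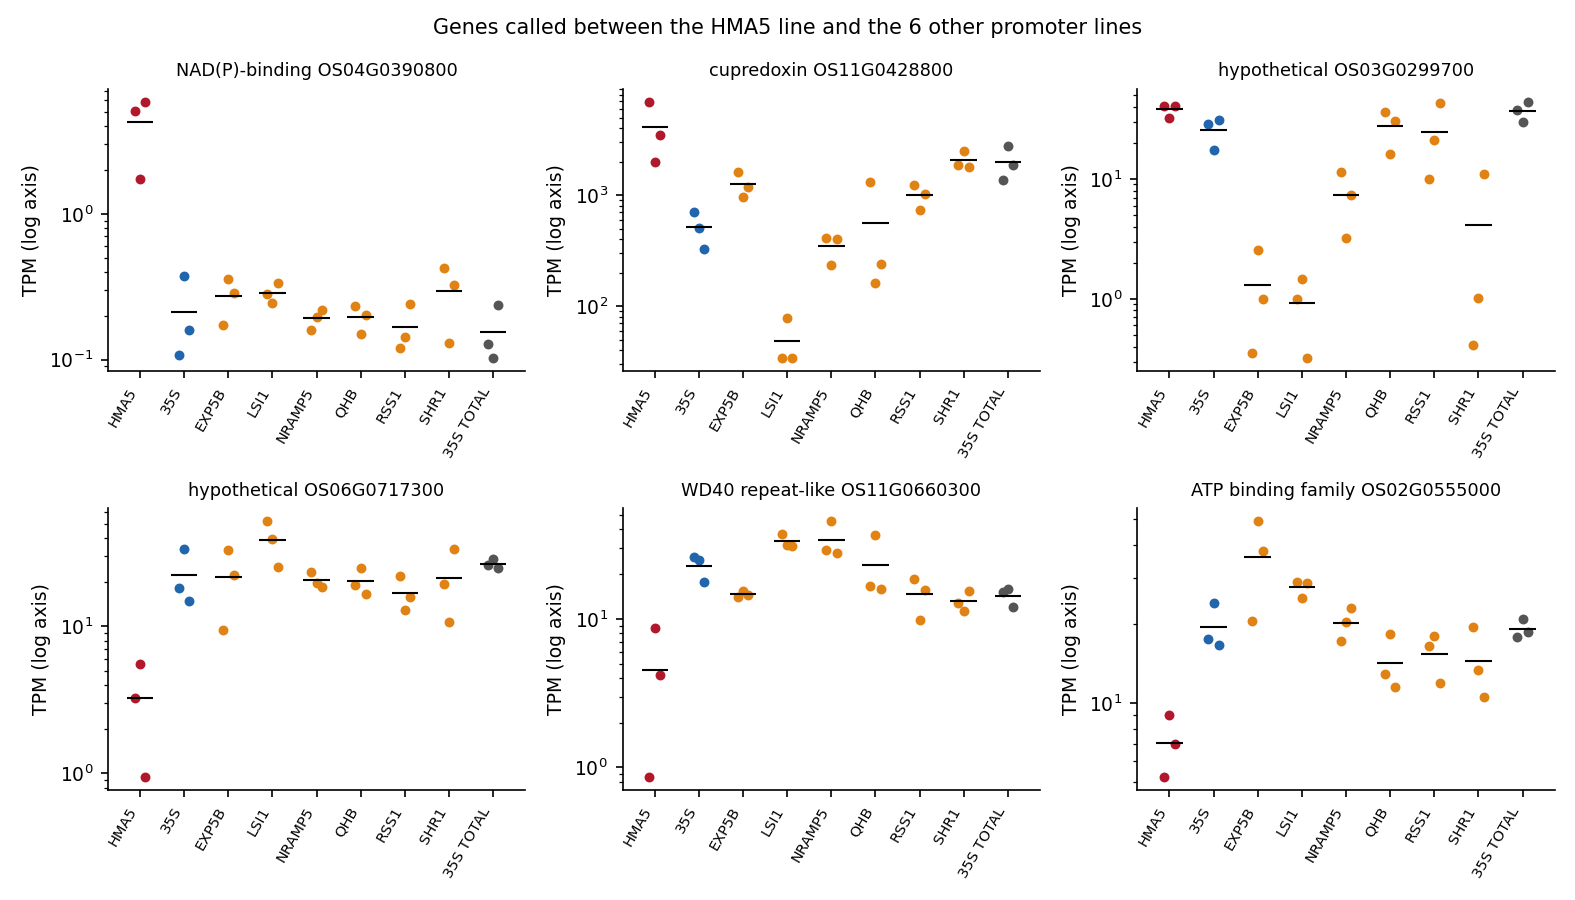
TPM (log axis) in each field library of 6 genes called between the HMA5 line (red) and the 6 other promoter lines (orange), with 35S TRAP (blue) and 35S TOTAL RNA (grey); dots are libraries and lines are group means. The NAD(P)-binding gene lies at 1.73 to 5.87 TPM in the HMA5 line and at 0.428 TPM or less elsewhere, and OS06G0717300 is lowest in the HMA5 line.

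The few genes called against the closest lines included the gene of another line's promoter. OS02G0606700, listed here as the RSS1 gene and described in the deposited table as a conserved hypothetical protein, read 13.8, 6.10 and 23.0 TPM in the HMA5 line and 219.8, 393.2 and 284.9 TPM in the RSS1 line (-4.42, adjusted p = 0.00105), and the lines did not overlap. Against SHR1 the genes OS01G0262401 (-3.35), OS07G0153150 (-4.18) and OS02G0527700 (-1.90) were lower, and none has a described function. The adjusted p was 1.7e-05 for OS01G0262401 and 0.0499 for each of the other two. Leaving out any HMA5 library left 1 call against SHR1, and fitting the compared groups alone left 0 in limma, with 753 genes at an unadjusted p under 0.05. Against EXP5B the genes OS02G0555000 (-2.13) and OS01G0968200 (-2.77) were lower and OS03G0299700 (4.19) and OS01G0252400 (2.86) higher. That comparison gave 0 calls in limma with the compared groups fitted alone (831 genes at an unadjusted p under 0.05), 0 without HMA5 replicate 1 or without HMA5 replicate 3, and 10 without HMA5 replicate 2. OS03G0299700 read 40.4, 32.5 and 41.0 TPM in the HMA5 line and averaged 37.2 TPM in TOTAL RNA and 1.30 TPM in EXP5B.

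Against TOTAL RNA the 57 higher genes (0.207%) included OS02G0803300 (7.07), OS02G0714100 (6.41), OS06G0645400 (5.61) and OS06G0175500 (5.48), which are described above. The 9 lower genes (0.0327%) included OS02G0626100, similar to phenylalanine ammonia-lyase, the entry enzyme of lignin synthesis. It read 2611, 3423 and 3927 TPM in the HMA5 line and averaged 35620 TPM in TOTAL RNA (-3.44, adjusted p = 7.5e-07). Its difference from 35S TRAP was -0.09, with an adjusted p of 0.905.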

How the data were processed

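The authors deposited TPM for 28248 genes. These derive, per the file headers, from reads quantile-normalized by limma voom after genes without more than 3 CPM in any condition had been dropped. Columns sum to 999953 to 1000051, so the depth behind each value is unknown. Bowtie2, TopHat2, HOMER, limma and the build IRGSP-1.0 are named, without versions, per the submitters' processing notes. Gene names are the deposited descriptions, and the RefSeq gene table matched 0 of 28248 identifiers.

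Tests used limma 3.58.1 under R 4.3.3. Its input was log2(TPM + 1), the variance prior followed mean level, and genes were tested on reaching 1 TPM in 3 or more libraries, with Benjamini-Hochberg adjustment over all genes tested. Fold changes on this scale understate low genes. On simulated data for HMA5 against 35S TRAP over 27513 genes, 84 of 100 genes changed by 3 on the log2 scale were called and 27 of 100 changed by 1.5, with 6 false calls. The simulated noise was normal and independent between libraries, with the same SD for a gene in every library. Only genes above a minimum mean level were changed. Shared deviations of same-numbered libraries and uneven libraries were left out, so these counts give no error rate for the real data.

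Named genes were the 15 largest rises and falls that were called, had a higher mean of at least 5 TPM and did not overlap. Called list members and driver genes were added. Up to 8 each way were sought by the same rule against the 6 other lines. No called rise met that rule there, and the falls named are those that did. OS11G0428800 and OS04G0390800, which did not meet it, were chosen after their values were seen. So were OS06G0175500, the RSS1 gene and single genes called against 1 line. Members and lists were chosen with earlier results of these data known. Same-numbered libraries deviated together for HMA5 and 35S (correlations 0.236, 0.164 and 0.378), RSS1, SHR1 and TOTAL RNA. The main fits used no replicate block, so their counts ignore this pairing. The block was run only as an alternative, in every comparison, and gave 3054 calls against 35S TRAP. Alternatives changed the pseudocount, filter, libraries fitted, block, scaling and weights. Figures were drawn with matplotlib 3.10.9.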

Additional observations from a re-analysis of the deposited data

How the results depend on the processing

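With array weights the genes called against 35S TRAP numbered 4777 (3173 higher, 1604 lower), against the 6 other lines 68, against SHR1 1, against EXP5B 1 and against TOTAL RNA 758. In the gene lists the same setting gave 52 higher cell cycle genes, 14 higher manganese and zinc transporters, 13 higher metallothioneins, 4 lower peroxidases, and 5 higher and 1 lower iron acquisition genes. Fitted on the compared groups alone, calls numbered 4 against the 6 other lines, 595 against QHB, 2 against TOTAL RNA and 0 in limma against SHR1, EXP5B and RSS1, where 753, 831 and 778 genes had an unadjusted p under 0.05. That fit left 1 lower lipid transfer gene and 4 higher manganese and zinc transporters. With the replicate block there were 180 calls against the 6 other lines, 2 against SHR1, 110 against TOTAL RNA, 11 higher metallothioneins and 1 lower peroxidase. A pseudocount of 0.1 gave 2 calls against SHR1, 2 against EXP5B, 7 higher metallothioneins and 1 lower lipid transfer gene, and one of 5 gave 1 against RSS1. A minimum of 5 TPM gave 1 against SHR1, 1 against RSS1 and 7 higher metallothioneins. Leaving RPL18 out of the TPM total gave 2 against SHR1 and 1 lower lipid transfer gene. Centring gave 2 against SHR1, 4 higher manganese and zinc transporters and 1 lower iron gene. The causes were not tested.

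Leaving out 1 library at a time gave 1347 to 2852 calls against 35S TRAP (1119 to 2155 higher, 220 to 697 lower), 0 to 45 against the 6 other lines, 2101 to 3126 against NRAMP5, 1 in each case against SHR1, 0 to 10 against EXP5B, 1 to 3 against RSS1, 999 to 1728 against QHB and 22 to 298 against TOTAL RNA. The higher members ranged over 15 to 23 peroxidases (0 to 2 lower), 18 to 34 cell cycle genes, 8 to 12 expansins, 3 to 7 endodermis genes, 2 to 8 manganese and zinc transporters (1 to 3 lower), 2 to 7 metallothioneins (3 to 6 lower) and 10 to 12 lipid transfer genes (1 lower). The HMA5 gene difference ranged from -0.59 to 0.40 and was 0.01 without HMA5 replicate 2, 0.40 without HMA5 replicate 3 and 0.17 without 35S replicate 1. Of the named genes' values under all alternatives, 591 kept their direction and side of the threshold, 15 lost the call and 12 gained it. Depth is unknown, so counting error cannot be given.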
